A study of Homo sapiens with 8 samples.

Results

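The CEACAM family and 5 further tumour surface antigens were followed by RNA sequencing in xenograft tumours grown from H2122, a long-established human lung cancer line. The set held 9 genes, CEACAM1, CEACAM5, CEACAM6, CEACAM7, EPCAM, MSLN, FOLR1, L1CAM and CD44, chosen by gene symbol from the 59050 symbols of each deposited count file. All 9 passed the filter on low counts that left 16219 genes for testing. Tumours of unedited H2122 cells (genotype labelled WT, called parental, 4 tumours) were compared with tumours of H2122 cells whose genotype is labelled SMARCA4 KO (called knockout, 4 tumours). Every animal had received vehicle. SMARCA4 is the motor subunit of many SWI/SNF complexes, which move nucleosomes. The series title speaks of tumour immunity and of the STING pathway. The mouse strain, its remaining immune cells, and whether the knockout cells came from 1 clone are not given in the sources used here.

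CEACAM proteins are immunoglobulin-like adhesion molecules of epithelial and blood cells. CEACAM1 crosses the membrane and carries inhibitory signalling motifs, whereas CEACAM5 (carcinoembryonic antigen, a serum tumour marker), CEACAM6 and CEACAM7 are held in the outer membrane by a glycosylphosphatidylinositol (GPI) anchor. Mice carry Ceacam1 but have no direct counterpart of CEACAM5, CEACAM6 or CEACAM7. The other members are antigens of epithelial cancers: the adhesion molecule EPCAM, the GPI-anchored proteins mesothelin (MSLN) and folate receptor alpha (FOLR1), the neural adhesion molecule L1CAM, and CD44, the main receptor for hyaluronan.

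CEACAM5 and CEACAM6 lie side by side on chromosome 19, and CEACAM7 lies next to CEACAM5 on the opposite strand. The 250 bases before the RefSeq start of 4 CEACAM genes and CD44 are shown because CEACAM5, CEACAM6 and CD44 moved one way, CEACAM7 the other, and CEACAM1 did not pass the test. Sequences are 5′ to 3′ on the strand of the gene (GRCh38.p14), with capitals marking matches to 7 short motifs. The windows are CEACAM5 at chr19:41708376-41708625 (plus strand), CEACAM6 at chr19:41755280-41755529 (plus), CEACAM7 at chr19:41688271-41688520 (minus), CEACAM1 at chr19:42528482-42528731 (minus) and CD44 at chr11:35138921-35139170 (plus).
CEACAM5: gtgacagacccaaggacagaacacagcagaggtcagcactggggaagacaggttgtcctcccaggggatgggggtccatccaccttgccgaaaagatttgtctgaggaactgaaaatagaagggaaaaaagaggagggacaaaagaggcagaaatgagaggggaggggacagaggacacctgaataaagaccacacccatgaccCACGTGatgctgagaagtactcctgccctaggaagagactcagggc
CEACAM6: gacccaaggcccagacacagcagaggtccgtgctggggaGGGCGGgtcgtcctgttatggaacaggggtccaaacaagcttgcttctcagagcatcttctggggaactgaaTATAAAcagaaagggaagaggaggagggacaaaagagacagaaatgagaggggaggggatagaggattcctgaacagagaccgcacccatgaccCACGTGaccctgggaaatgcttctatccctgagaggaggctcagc
CEACAM7: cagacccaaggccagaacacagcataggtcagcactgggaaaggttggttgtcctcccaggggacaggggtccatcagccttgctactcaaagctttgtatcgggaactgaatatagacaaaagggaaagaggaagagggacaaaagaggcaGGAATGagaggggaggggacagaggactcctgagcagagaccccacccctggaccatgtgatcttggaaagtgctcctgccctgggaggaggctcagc
CEACAM1: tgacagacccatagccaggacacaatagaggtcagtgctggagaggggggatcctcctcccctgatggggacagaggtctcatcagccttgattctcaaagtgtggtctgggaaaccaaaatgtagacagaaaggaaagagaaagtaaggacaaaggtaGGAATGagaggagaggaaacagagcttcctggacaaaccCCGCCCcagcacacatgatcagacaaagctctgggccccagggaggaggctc
CD44: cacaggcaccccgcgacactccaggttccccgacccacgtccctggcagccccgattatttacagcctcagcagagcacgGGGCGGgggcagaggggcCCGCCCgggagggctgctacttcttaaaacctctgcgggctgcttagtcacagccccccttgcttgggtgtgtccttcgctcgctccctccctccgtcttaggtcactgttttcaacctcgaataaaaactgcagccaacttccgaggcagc

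The motifs searched on both strands were TGANTCA (AP-1), CACGTG (E-box), GGGCGG (Sp1), GGAATG (TEAD), TGTTTAC (FOXA), CCAAT (NF-Y) and TATAAA (TBP), and no matches overlapped. CACGTG occurred 46 bases before the start of CEACAM5 and 45 bases before that of CEACAM6. This motif was present in 6.34% of the 35116 RefSeq promoters of the same length, and had no match in the windows of CEACAM7, CEACAM1 or CD44. In pairwise alignments the letters opposite the CEACAM5 motif differed by C3T in CEACAM7 and by G4A in CEACAM1. Positions are counted from 1 at the first base of the motif, with the CEACAM5 base first. GGAATG occurred 98 bases before the start of CEACAM7 and 91 bases before that of CEACAM1, against 11.9% of all promoters. GGGCGG, which 42.6% of promoters hold, was found once each for CEACAM6 and CEACAM1 and at 2 places for CD44, and TATAAA (10.7% of promoters) once, for CEACAM6. No AP-1, FOXA or NF-Y match was found in these 5 windows. The CEACAM5 window was 80.5% identical to that of CEACAM7 and 74.6% identical to that of CEACAM6, so the closest sequence to CEACAM5 belonged to the neighbour that moved the opposite way. A match describes the letters only, and no factor binding was measured.

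Across the set, CEACAM5, CEACAM6 and CD44 rose in knockout tumours and CEACAM7 fell, while EPCAM, MSLN, FOLR1, CEACAM1 and L1CAM did not pass the test. Levels are given as CPM, read counts scaled to the size of each library and so comparable between tumours. A gene was called changed when its adjusted p was under 0.05 in edgeR's quasi-likelihood test across all 16219 genes, with the Benjamini-Hochberg adjustment. By this rule 4 of 9 members were called, beside 27.0% of all genes tested. For 3 members the call was upward (13.0% of all genes) and for 1 it was downward (14.1%). All knockout values lay above all parental values for 3 members (14.0% of all genes) and below them for 1, EPCAM (15.3%), together 4 members against 29.3% of all genes. Given how many genes differed between these tumours, the number of calls alone does not set the members apart.

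**Figure D1:**
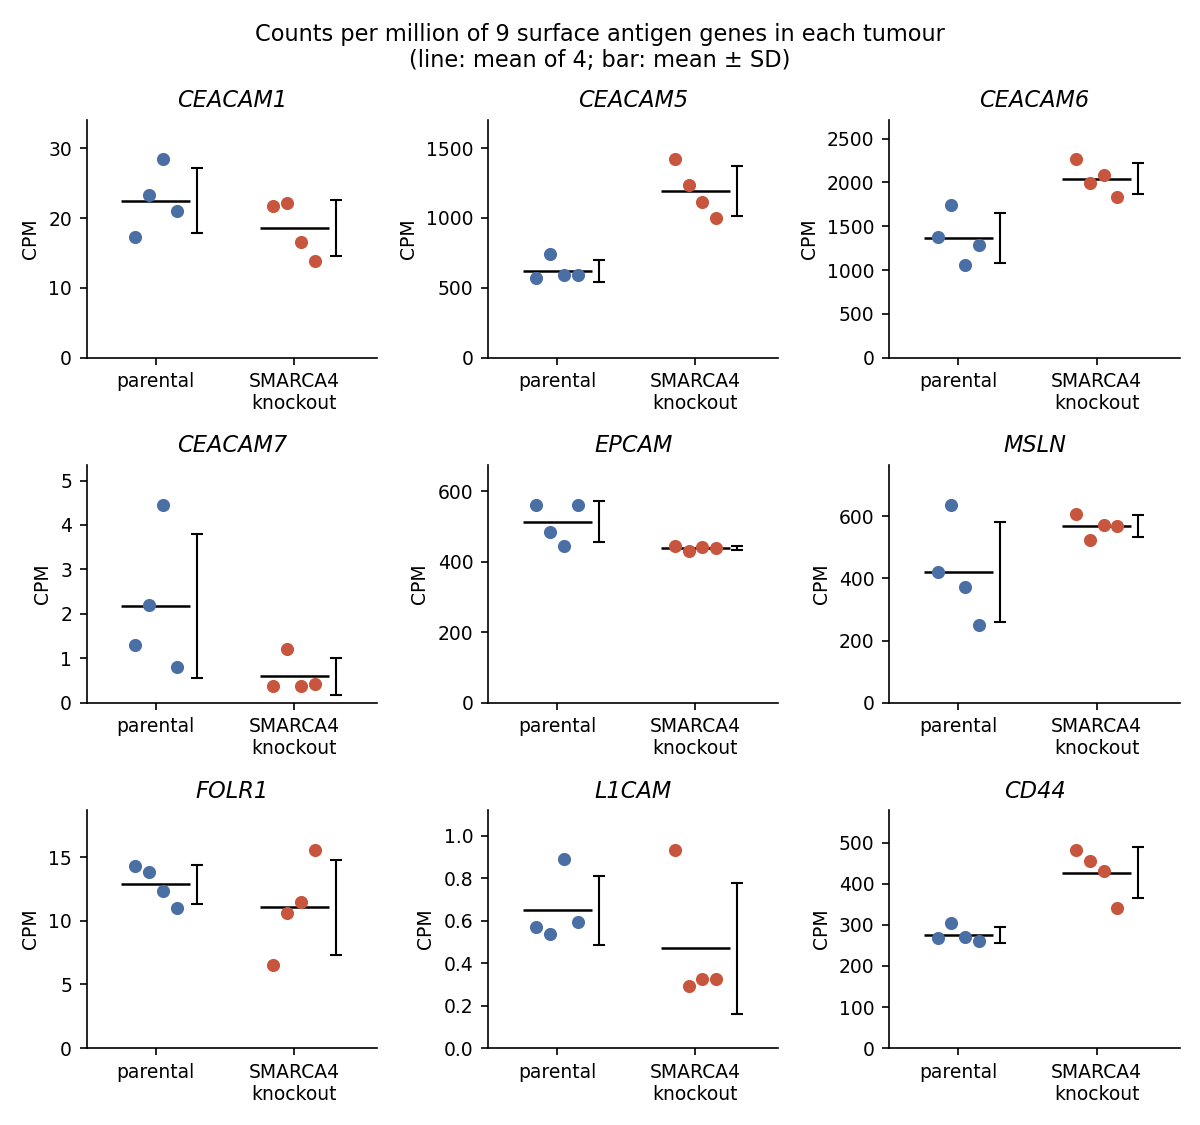
CPM (y axis from 0) of each of the 9 genes in 4 parental (blue) and 4 SMARCA4 knockout (red) tumours, with 1 point a tumour, a line at the mean and a bar of mean ± SD. All knockout points of CEACAM5, CEACAM6 and CD44 lie above all parental points, those of EPCAM lie just below the lowest parental point, and the groups overlap for the other 5 genes.

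Library depth was similar in both groups, at 19785922 to 23191698 gene counts a tumour. The targeted gene followed its labels: SMARCA4 averaged 220 ± 16.0 CPM with the gene intact and 27.2 ± 3.90 CPM in the knockout group (SD, n = 4 per group), with no overlap (log2 fold change -3.02, SE 0.117, edgeR adjusted p = 1.45e-07). The tissue label was checked against epithelial and lung markers. Keratin genes KRT7, KRT8, KRT18 and KRT19 all averaged over 500 CPM in both groups, whereas 3 of 9 lung lineage genes, NKX2-1, SFTPC and SFTPA1, had 0 counts in all tumours. The other 6 were scarce: SFTPD rose from 2.04 to 5.71 CPM (edgeR adjusted p = 0.000902), FOXA2 fell from 4.53 to 1.22 CPM (adjusted p = 0.000482), NAPSA was not called (0.917 and 1.07 CPM), and SFTPA2, SFTPB and SCGB1A1 had 69, 17 and 2 parental and 4, 19 and 0 knockout counts. Of a list of 11 genes, 10 epithelial markers and the mesenchymal marker VIM (not called), 5 were lower and 0 higher in knockout tumours (45.5% called, beside 27.0% of all genes). KRT19 fell from 1059 to 526 CPM and KRT7 from 1672 to 1023 CPM. KRT8, KRT17, KRT18 and CDH1 were not called (log2 fold changes 0.16, 0.27, 0.11 and 0.08), nor was ELF3 (-0.44). The list summed to 7869 to 9291 CPM among parental and 6419 to 8830 CPM among knockout tumours, with overlapping ranges. Leukocyte markers (10 genes, of which 8 were tested and 0 called by the edgeR test) gave sums of 11.6 to 92.6 CPM among parental and 15 to 33.4 CPM among knockout tumours, with parental replicates 2 and 3 at 92.6 and 77.9 CPM. Human granulocytes also carry CEACAM1 and CEACAM6. Host granulocytes of a xenograft are mouse cells, and mice carry Ceacam1 but have no direct counterpart of CEACAM6. The 8 granulocyte markers summed to 743 to 1245 CPM among parental and 1964 to 3228 CPM among knockout tumours. Nearly all of each sum was S100A8 and S100A9, which epithelial cells also express. The defining granulocyte genes MPO, ELANE, FCGR3B and CXCR2 had at most 5 counts over any group, CSF3R had 79 parental and 6 knockout counts, and CTSG had 24 parental and 83 knockout counts (0.0425 to 0.490 against 0.0466 to 2.66 CPM a tumour). Their part in the CEACAM values was not tested. In bulk tumours, fewer cells of a type and less RNA per cell cannot be told apart.

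CEACAM5 (ENSG00000105388, chromosome 19, 41708585 to 41729798, plus strand; positions of genes are those of GENCODE 29, GRCh38) had 568, 740, 592 and 588 CPM in parental replicates 1 to 4. It was at 1420, 1236, 1116 and 1003 CPM in knockout replicates 1 to 4. Every knockout tumour exceeded every parental tumour, and parental replicate 2 stood above the other 3 parental tumours. The means were 622 ± 79.3 and 1194 ± 178 CPM (SD, n = 4 each), a 1.92-fold rise (log2 fold change 0.94, SE 0.125, edgeR adjusted p = 0.000233; exact two-sided permutation p = 0.0286, the smallest that 4 against 4 can give). A log2 fold change at least this large in either direction was seen for 12.3% of all genes tested.

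CEACAM6 (ENSG00000086548, chromosome 19, 41750977 to 41772208, plus strand), a GPI-anchored relative of CEACAM5, was the most abundant member. Parental replicates 1 to 4 gave 1372, 1742, 1054 and 1290 CPM. Knockout replicates 1 to 4 gave 2265, 1994, 2085 and 1833 CPM. The groups did not overlap, although parental replicate 2 came close to the lowest knockout tumour. The means were 1364 ± 285 and 2044 ± 180 CPM (SD, n = 4 each), a 1.5-fold rise (log2 fold change 0.58, SE 0.139, edgeR adjusted p = 0.00946).

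The rise of CEACAM5 was numerically the larger of the pair. The ratio of CEACAM5 to CEACAM6 counts ran 0.414, 0.425, 0.562 and 0.456 over parental replicates 1 to 4. Over knockout replicates 1 to 4 it ran 0.627, 0.620, 0.535 and 0.547. The groups overlapped through parental replicate 3, and the ratio was not shown to differ (0.464 ± 0.0677 against 0.582 ± 0.0478, SD, n = 4 each; exact two-sided permutation p = 0.0857). CEACAM1, CEACAM5, CEACAM6 and CEACAM7 together took 0.202% ± 0.0350 of all parental gene counts and 0.323% ± 0.0302 of the knockout ones (SD, n = 4 per group), and CEACAM5 and CEACAM6 supplied at least 98.0% of these in every tumour.

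CEACAM7 (ENSG00000007306, chromosome 19, 41673307 to 41706976, minus strand), a GPI-anchored member best known from the colon, was scarce and fell. Its counts were 25, 45, 100 and 19 across the parental replicates, in order, and 8, 25, 8 and 9 across the knockout replicates. These amount to 1.29, 2.19, 4.46 and 0.807 CPM against 0.373, 1.22, 0.373 and 0.419 CPM. Parental replicate 3 was highest, and knockout replicate 2 overlapped the parental range. On the log2 scale the difference was -1.88 (SE 0.563; edgeR adjusted p = 0.0288; exact two-sided permutation p = 0.0571). The call was lost without parental replicate 3 (log2 fold change -1.26, adjusted p = 0.0890) and without knockout replicates 1, 3 or 4 (-1.71 to -1.74, adjusted p = 0.0775 to 0.0817). Parental replicates 2 and 3, with the highest CEACAM7 values, also had the highest sums of leukocyte markers. Host leukocytes of a xenograft are mouse cells, and mice have no direct counterpart of CEACAM7. Any link of these sums with the CEACAM7 values was not tested.

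CEACAM1 (ENSG00000079385, chromosome 19, 42507304 to 42561234, minus strand), which is found on epithelium, endothelium and leukocytes, had 17.3, 23.3, 28.5 and 21.0 CPM in parental replicates 1 to 4. The knockout tumours had 21.7, 22.2, 16.6 and 13.9 CPM. The groups overlapped, and the difference did not pass the test (log2 fold change -0.28, from -0.64 to 0.08 at 2 SE either side, edgeR adjusted p = 0.286). Counts per gene do not separate the long and short cytoplasmic forms of CEACAM1.

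The remaining CEACAM genes were mostly silent. Of 8 others listed, CEACAM19 alone was abundant enough to test, and it rose from 4.93 ± 0.623 to 9.97 ± 1.87 CPM (SD, n = 4 each; log2 fold change 1.01, SE 0.164, edgeR adjusted p = 0.000877), with no overlap. CEACAM18 had 0 counts in all 8 tumours, which allows up to 3 counts. CEACAM3, CEACAM4, CEACAM8, CEACAM16, CEACAM20 and CEACAM21 had at most 9 counts over any group. None of 10 pregnancy-specific glycoprotein genes, the CEACAM relatives of the placenta, was tested, and their sum was at most 0.280 CPM in any tumour.

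Reads of near-identical relatives can be split or dropped. Of all 50-base stretches of the longest coding transcript, 3.26% in CEACAM5, 4.60% in CEACAM6, 4.15% in CEACAM1 and 0% in CEACAM7 occurred in another CEACAM gene. The readthrough gene AC243967.1, annotated over CEACAM5 and CEACAM6 on the same strand, shares exons with both and had 0 counts in all 8 tumours. Including this gene, 19.96% of the CEACAM5 stretches and 7.92% of the CEACAM6 stretches were not unique, so reads there can be set aside as ambiguous in every tumour.

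The outermost GENCODE ends of CEACAM5 and CEACAM7, which changed in opposite directions, lie 1.61 kb apart, while the RefSeq start of CEACAM7 behind the window shown lies farther inside its GENCODE extent. The windows shown for CEACAM6, CEACAM1 and CD44 also lie inside the GENCODE extents of their genes. By GENCODE, CEACAM6 begins 21.2 kb beyond the end of CEACAM5, and CEACAM1 lies 778 kb beyond it. Among 30 other tested genes from 500 kb before CEACAM7 to 500 kb after CEACAM1 (a window chosen after the values were seen), 3 were higher, 8 lower and 19 not called, 36.7% called beside 27.0% of all genes, with a median log2 fold change of -0.09. On the far side of CEACAM6 the next tested gene, RPS19, had a log2 fold change of -0.09 (edgeR adjusted p = 0.479). Called genes of both directions lay in the region.

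**Figure D2:**
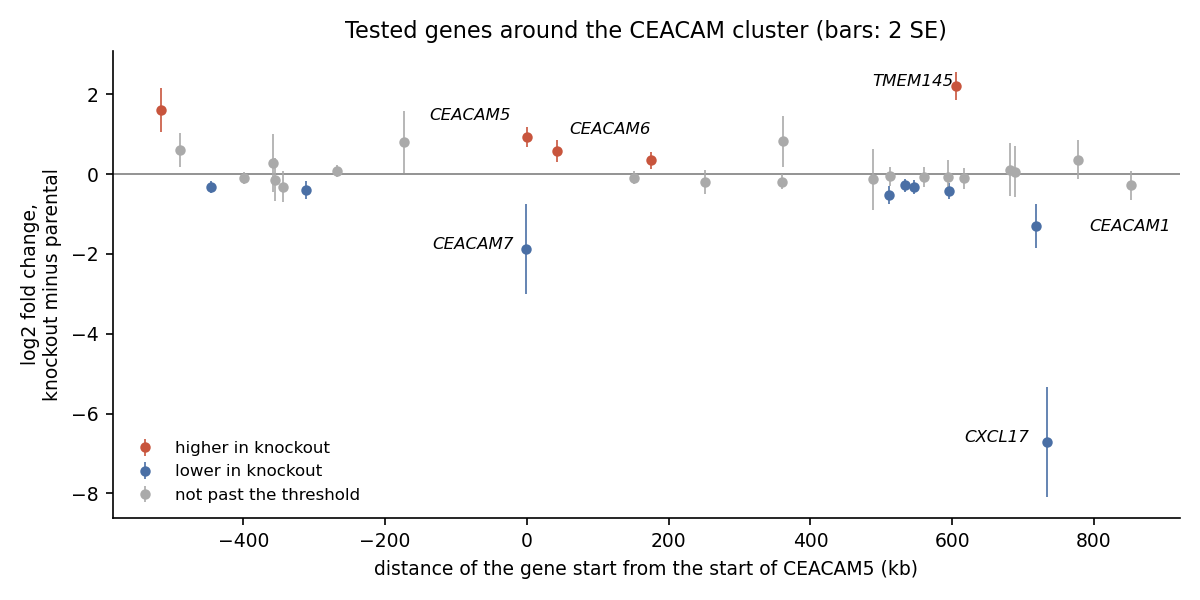
Log2 fold change (knockout minus parental, y axis, bars of 2 SE) of tested genes around the CEACAM cluster against the distance of each gene start from the start of CEACAM5 in kb (x axis), coloured by call. CEACAM5 (0.94) and CEACAM6 (0.58) lie above 0 beside CEACAM7 (-1.88), with genes on both sides of 0 around them.

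CD44 (ENSG00000026508, chromosome 11, 35138870 to 35232402, plus strand) read 268, 303, 269 and 261 CPM across parental replicates 1 to 4. Across knockout replicates 1 to 4 it read 483, 455, 430 and 341 CPM. All knockout tumours were above all parental tumours. The means were 276 ± 19.0 and 427 ± 61.4 CPM (SD, n = 4 each), a 1.55-fold rise (log2 fold change 0.63, SE 0.111, edgeR adjusted p = 0.00153). Leukocytes also carry CD44, their markers are given above, and their part in the CD44 values was not tested. CD44 transcripts are spliced into standard and variant forms, which counts per gene do not separate. SLC1A2, the next tested gene 18.8 kb beyond CD44, which encodes a glutamate transporter, went from 0.120 to 9.43 CPM (log2 fold change 6.15, edgeR adjusted p = 1.81e-05), while PDHX on the other side did not pass the test (-0.04, adjusted p = 0.828).

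Genes for making, cutting and holding hyaluronan, the polysaccharide that CD44 binds, were compared with CD44. Of 27 genes listed as hyaluronan enzymes, CD44 partners or splicing factors, 21 were tested, 10 rose and 2 fell (57.1% called, beside 27.0% of all genes), with a median log2 fold change of 0.32 against 0.0034 over all genes. Leaving out any 1 tumour gave 9 to 11 higher and 1 or 2 lower. The hyaluronan synthase gene HAS3 rose from 0.914 ± 0.108 to 3.86 ± 0.885 CPM (log2 fold change 2.08, SE 0.231, edgeR adjusted p = 6.74e-05). HAS2, another synthase gene and one below the abundance set for naming, rose from 0.528 ± 0.145 to 3.17 ± 0.997 CPM (2.58, SE 0.320, adjusted p = 0.000146). CEMIP, which encodes a hyaluronan-depolymerizing protein, rose from 42.1 ± 11.3 to 130 ± 28 CPM (1.62, adjusted p = 0.000144). VCAN, for the hyaluronan-binding proteoglycan versican, rose from 37.6 ± 14.1 to 105 ± 19.6 CPM (1.48, adjusted p = 0.00104; SD and n = 4 each throughout). The hyaluronidase genes HYAL1 and HYAL3 also rose (log2 fold changes 1.47 and 1.13), as did the genes of the CD44 ligand osteopontin, SPP1 (0.98), and the membrane linker moesin, MSN (0.55). Other genes of hyaluronan breakdown, HYAL2 (0.32, adjusted p = 0.103) and CEMIP2 (0.25, adjusted p = 0.153), did not pass the test, and the synthase gene HAS1 had 0 counts. ESRP1, an epithelial splicing factor that promotes CD44 variant exons, fell from 180 ± 12.0 to 125 ± 10.4 CPM (SD, n = 4 each; log2 fold change -0.52, edgeR adjusted p = 0.0012). KHDRBS1, another regulator of CD44 splicing, fell by 0.25 on the log2 scale (adjusted p = 0.0328), a call lost in 7 of the 8 fits without 1 tumour and with the replicate block or no filter on low counts. The groups did not overlap for 12 of the 21 tested genes, beside 29.3% of all genes. Fibroblast markers, from cells that make hyaluronan and versican, gave sums of 181 to 610 CPM among parental and 344 to 605 CPM among knockout tumours, with overlapping ranges, and most of each sum was COL1A1. Of the 8 fibroblast markers 5 were tested, and LUM, for the matrix proteoglycan lumican, rose from 0.374 ± 0.236 to 12.4 ± 2.49 CPM (SD, n = 4 each; log2 fold change 5.00, edgeR adjusted p = 1.98e-06), with no overlap, as VCAN and HAS2 rose. COL1A1, COL1A2, COL3A1 and FAP were not called, and DCN, PDGFRA and PDGFRB had at most 27 counts over any group. The part of fibroblasts in the result was not tested.

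**Figure D3:**
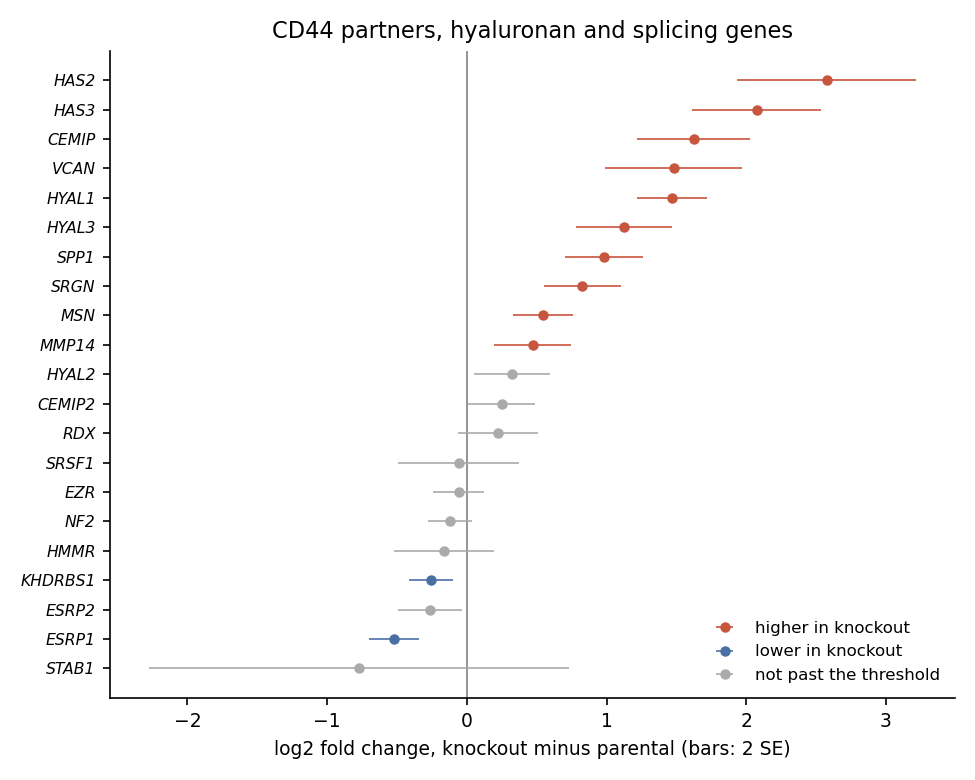
Log2 fold change (x axis, knockout minus parental, bars of 2 SE) of 21 tested genes of hyaluronan metabolism, CD44 partners and CD44 splicing (y axis, sorted). HAS2, HAS3, CEMIP, VCAN and HYAL1 lie farthest to the right, and ESRP1 is lower in knockout tumours.

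EPCAM (ENSG00000119888, chromosome 2, 47345158 to 47387601, plus strand), an epithelial adhesion molecule, read 563, 486, 446 and 563 CPM across parental replicates 1 to 4. Across knockout replicates 1 to 4 it read 445, 432, 443 and 439.9 CPM. The knockout tumours were nearly identical to each other and all lay below the lowest parental tumour, by a narrow margin. The log2 fold change of -0.23 (from -0.41 to -0.04 at 2 SE either side) did not pass the threshold (edgeR adjusted p = 0.0942; unadjusted exact two-sided permutation p = 0.0286), but did so without parental replicate 3 (-0.29, adjusted p = 0.0368). Genes of EPCAM partners and relatives were also examined. Of 17 tested, 5 fell and 2 rose (41.2% called, beside 27.0% of all genes), with a median log2 fold change of -0.02. Leaving out 1 tumour gave 4 or 5 lower and 1 to 6 higher, with more higher than lower (6 and 5) without knockout replicate 4. The tetraspanin gene CD9, whose protein associates with EPCAM, fell from 134 ± 16.8 to 86.5 ± 5.86 CPM (SD, n = 4 each; log2 fold change -0.63, SE 0.0998, edgeR adjusted p = 0.000814). CLDN7, the claudin that binds EPCAM, fell by 0.31 on the log2 scale (adjusted p = 0.0205) and was picked out after its value was seen. PSENEN, a subunit of the gamma-secretase that cleaves EPCAM, fell by 0.57 (adjusted p = 0.0103). The protease gene BACE1 rose by 0.74 (adjusted p = 0.00528), and CLDN1 by 0.49 (adjusted p = 0.0292), the last a call lost in 5 of the 8 fits without 1 tumour.

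MSLN (ENSG00000102854, chromosome 16, 760762 to 768865, plus strand) read 422, 637, 374 and 251 CPM across parental replicates 1 to 4. Across knockout replicates 1 to 4 it read 608, 522, 573 and 567 CPM. The knockout tumours fell in a narrow band inside the wide parental range, above 3 parental tumours and below parental replicate 2. The log2 fold change of 0.43 (from -0.0021 to 0.86 at 2 SE either side) did not pass the test (edgeR adjusted p = 0.170). Without parental replicate 2 it was 0.70 (adjusted p = 0.00622), a call. That tumour also had the highest sum of leukocyte markers, and any link of this sum with the MSLN values was not tested. Mesothelial markers (8 genes, 2 of 4 tested called higher) gave sums of 22.5 to 39.3 CPM among parental and 34.8 to 60.5 CPM among knockout tumours, with CALB2 the most abundant. The defining genes WT1, LRRN4, ITLN1 and BNC1 had at most 14 counts over any group, and the part of these cells in the MSLN values was not tested. Of the genes tied to mesothelin, MUC16, which encodes its binding partner CA125, was at 309 ± 258 and 307 ± 39.9 CPM (SD, n = 4 each, log2 fold change -0.0069, edgeR adjusted p = 0.993). Its parental values ran from 149 to 694 CPM and its knockout values from 259 to 356 CPM. With so wide a parental range, the like means do not show that MUC16 was unchanged. MSLNL, the paralog 0.563 kb beyond MSLN, rose from 1.15 ± 0.489 to 2.96 ± 1.37 CPM (SD, n = 4 each; log2 fold change 1.35, adjusted p = 0.0258), with overlapping groups. That call was lost with the replicate block (adjusted p = 0.0616) and without parental replicates 1 or 4 or knockout replicates 2 or 4 (adjusted p up to 0.0798).

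FOLR1 (ENSG00000110195, chromosome 11, 72189558 to 72196323, plus strand), which takes up folate, read 14.3, 13.8, 12.3 and 11 CPM across parental replicates 1 to 4. Across knockout replicates 1 to 4 it read 6.53, 10.6, 11.5 and 15.6 CPM. The knockout values spanned both sides of the parental range. FOLR1 had a log2 fold change of -0.22 (from -0.65 to 0.22 at 2 SE either side, edgeR adjusted p = 0.502), and it was -0.03 without knockout replicate 1. The other folate receptor genes FOLR2 and FOLR3 had at most 7 counts over any group. Of 21 folate transport and enzyme genes tested, 3 rose and 6 fell (42.9% called, beside 27.0% of all genes), with a median log2 fold change of 0.0028. Leaving out 1 tumour gave 1 to 3 higher and 3 to 6 lower. The lowest counts were 1 higher without knockout replicate 3 and 3 lower without knockout replicates 1 or 2. The fall was largest for the 10-formyltetrahydrofolate dehydrogenase genes ALDH1L1, from 21.1 ± 3.80 to 9.05 ± 0.881 CPM (SD, n = 4 each; log2 fold change -1.22, SE 0.143, edgeR adjusted p = 9.84e-05), and ALDH1L2 (-1.16, adjusted p = 0.0101). The proton-coupled folate transporter gene SLC46A1 rose by 0.32 on the log2 scale (adjusted p = 0.0193), a call lost without parental replicate 1, without knockout replicate 3 and without a filter on low counts. MTHFD1L, for a mitochondrial folate enzyme, rose by 0.39 (adjusted p = 0.019), and MTRR, for methionine synthase reductase, by 0.37 (adjusted p = 0.0213). The MTHFD1L call was lost without knockout replicate 3 and with the replicate block, and the MTRR call without knockout replicates 1 or 2.

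L1CAM (ENSG00000198910, chromosome X, 153861514 to 153886174, minus strand) was near the limit of detection. It had 11, 11, 20 and 14 counts across parental replicates 1 to 4, and 20, 6, 7 and 7 counts across knockout replicates 1 to 4. L1CAM had a log2 fold change of -0.46 (from -1.28 to 0.36 at 2 SE either side, edgeR adjusted p = 0.445), which did not pass the test. Without knockout replicate 1, which held the highest knockout count, it was -1.03 (adjusted p = 0.0657). Of 16 tested genes of the L1 family and of L1CAM partners, 6 rose and 2 fell (50% called, beside 27.0% of all genes), with a median log2 fold change of 0.31. Without 1 tumour 4 to 7 rose, the lowest count being without parental replicate 1 or knockout replicate 2. Of the L1 family itself, NFASC, for neurofascin, fell from 77 to 10 counts over the group (log2 fold change -2.85, edgeR adjusted p = 0.000771), while CHL1 (0.62, adjusted p = 0.0917) and NRCAM (-0.34, adjusted p = 0.418) did not pass the test. CNTN1, for the neural adhesion protein contactin 1, rose from 3.50 ± 0.728 to 28.8 ± 6.18 CPM (SD, n = 4 each; log2 fold change 3.03, SE 0.186, edgeR adjusted p = 1.17e-06), with no overlap. The integrin genes ITGB1 and ITGA5 rose by 0.82 (adjusted p = 0.000556) and 1.00 (adjusted p = 0.0272, lost in 6 of the 8 fits without 1 tumour). ANK3, for an ankyrin that ties L1 proteins to the cytoskeleton, fell by 0.49 (adjusted p = 0.0107). Markers of nerve and Schwann cells, which carry L1CAM and CNTN1, gave sums of 32.1 to 39.6 CPM among parental and 30.3 to 43.0 CPM among knockout tumours, with overlapping ranges.

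**Figure D4:**
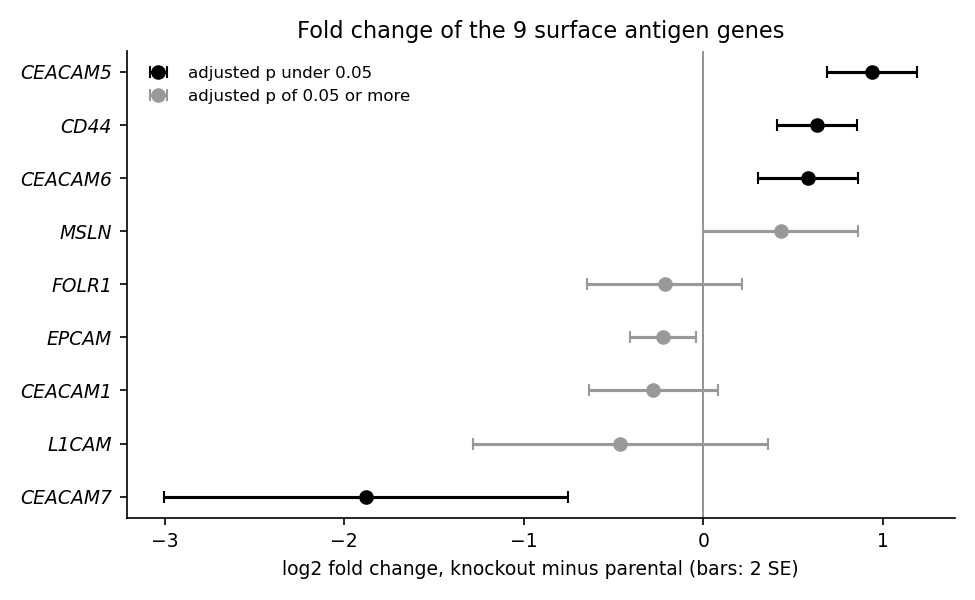
Log2 fold change (x axis, knockout minus parental) of the 9 genes with bars of 2 SE, black where the adjusted p is under 0.05. CEACAM5, CD44 and CEACAM6 lie to the right of 0 and CEACAM7 to the left, and the bars of CEACAM1, MSLN, FOLR1 and L1CAM cross 0.

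Levels of the members were compared per length, as CPM per kilobase of annotated exon. The length is the union of all annotated exons of a gene, so genes with many forms can read lower. For CD44 it is 10.0 kb, against 5732 bases in the longest coding transcript. Reads set aside as ambiguous, which can affect CEACAM5 and CEACAM6 as given above, were not corrected for. In parental tumours CEACAM6 was highest at 447 ± 93.5, above EPCAM at 204 ± 23.0, CEACAM5 at 186 ± 23.7 and MSLN at 165 ± 62.9, and the last 3 did not differ beyond their spread. CD44 followed at 27.5 ± 1.89, FOLR1 at 7.80 ± 0.913, CEACAM1 at 4.08 ± 0.843, CEACAM7 at 0.826 ± 0.611 and L1CAM at 0.0891 ± 0.0226 (SD, n = 4 each). In knockout tumours the order became CEACAM6 (670 ± 59.1), CEACAM5 (356 ± 53.3), MSLN (222 ± 13.8) and EPCAM (175 ± 2.26), with no overlap between neighbours. The lower part of the order was the same, with CD44 at 42.7 ± 6.14, FOLR1 at 6.71 ± 2.25, CEACAM1 at 3.37 ± 0.730, CEACAM7 at 0.225 ± 0.157 and L1CAM at 0.0646 ± 0.0426 CPM per kilobase (SD, n = 4 each), and FOLR1 and CEACAM1 overlapped. Among 15901 genes with an exon length, CEACAM6 moved from rank 48 to 33 and CEACAM5 from rank 163 to 72, while EPCAM moved from 143 to 180.

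GPI anchor genes were examined because CEACAM5, CEACAM6, CEACAM7, MSLN and FOLR1 need that anchor. Of 29 tested, 2 rose and 3 fell (17.2% called, below the 27.0% of all genes), with a median log2 fold change of 0.11. GPAA1 and PIGT, subunits of the transamidase that attaches the anchor, fell from 96.4 ± 12.7 to 65.6 ± 6.39 CPM (log2 fold change -0.56, edgeR adjusted p = 0.00303) and from 209 ± 10.1 to 148 ± 4.0 CPM (-0.50, adjusted p = 0.0005; SD, n = 4 each), both with no overlap between groups. PGAP3 (-0.46, adjusted p = 0.0389), PIGH (0.38, 0.0289) and DPM2 (0.29, 0.0476) were also called, and each lost its call in at least 3 fits without 1 tumour and with the replicate block. DPM2 was also not called in 5 further fits, DESeq2 and limma-voom among them. Among 10 genes for CEACAM1 ligands and signalling partners, 0 rose and 2 fell by the edgeR test (20% called, below the 27.0% of all genes). Leaving out 1 tumour gave 0 to 3 lower and 0 higher. The kinase gene SRC fell by 0.37 on the log2 scale (adjusted p = 0.0198). The SRC call was lost without knockout replicates 1 or 3.

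The members were set beside other surface antigens that antibodies or engineered T cells have been directed at. Of 71 listed, 70 were read from the files and 48 were tested. Of these 17 fell and 7 rose (50% called, beside 27.0% of all genes), with a median log2 fold change of -0.12. Leaving out any 1 tumour gave 14 to 18 lower and 4 to 10 higher. SLC44A4, a choline transporter, fell from 89.2 ± 28.3 to 1.95 ± 1.07 CPM (SD, n = 4 each; log2 fold change -5.52, SE 0.362, edgeR adjusted p = 1.93e-06). CA9, a carbonic anhydrase gene induced by hypoxia, fell from 88.6 ± 21.5 to 25.9 ± 7.57 CPM (-1.78, adjusted p = 0.000109). LY6E, a GPI-anchored protein gene, fell from 74.0 ± 19.8 to 24.0 ± 6.42 CPM (-1.62, adjusted p = 0.00028; SD and n = 4 each). Going the other way, LYPD3, another GPI-anchored protein gene, rose from 46.5 ± 6.43 to 229 ± 22.2 CPM (SD, n = 4 each; 2.30, SE 0.117, adjusted p = 5.7e-07). NT5E, for CD73, rose by 0.64 (adjusted p = 0.0156), and EGFR by 0.77 (adjusted p = 0.0425), a call lost in 5 of the 8 fits without 1 tumour, with limma-voom and with the replicate block. The abundant mucin antigen gene MUC1 did not pass the test (1666 ± 356 and 1697 ± 212 CPM, SD, n = 4 each, log2 fold change 0.03, adjusted p = 0.921). Groups did not overlap for 19 of the 48 antigens, beside 29.3% of all genes.

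**Figure D5:**
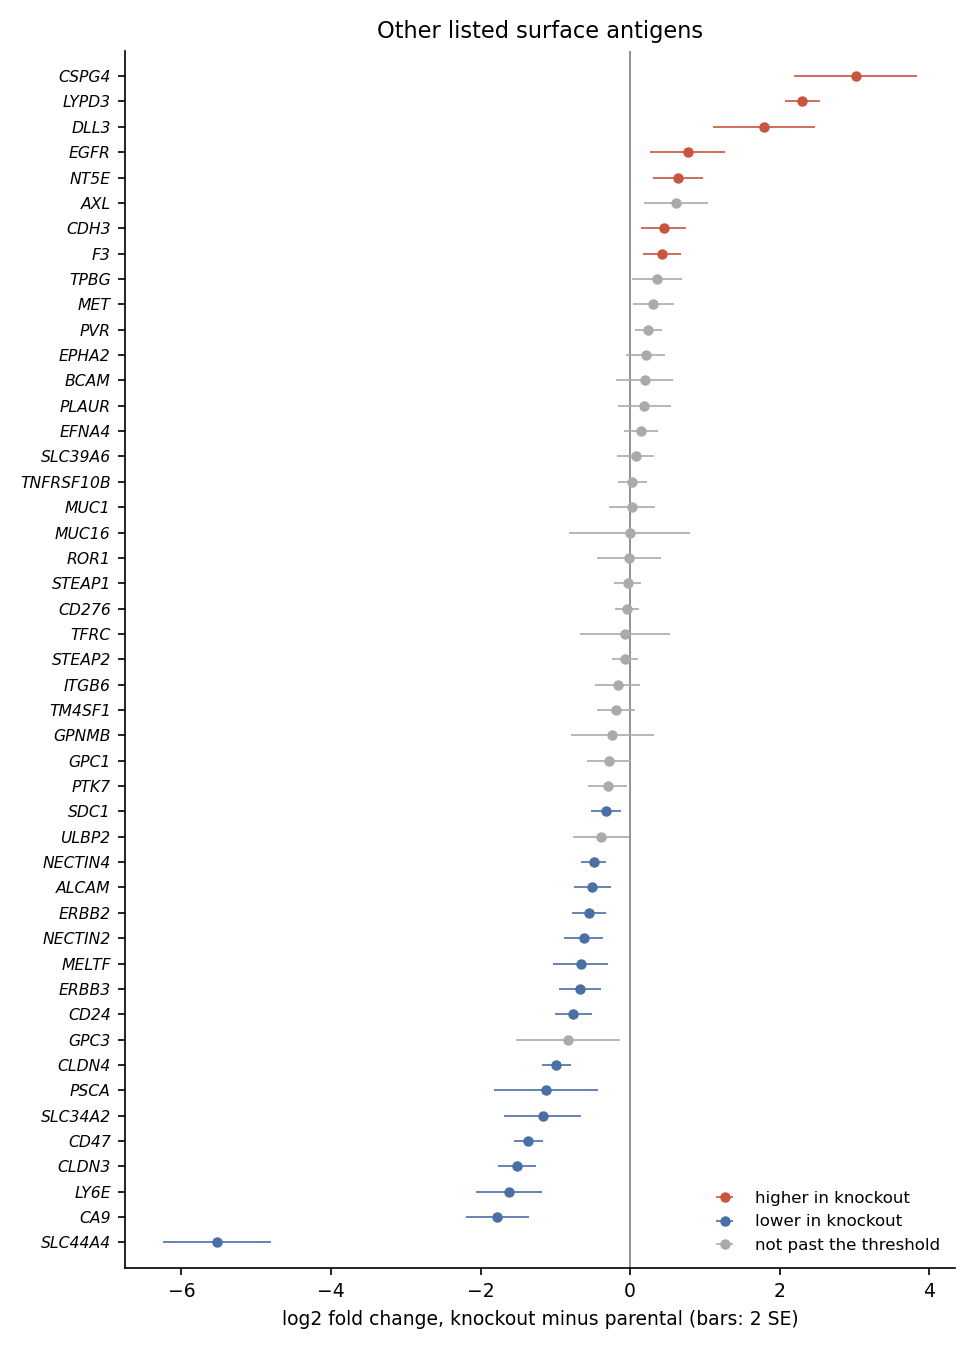
Log2 fold change (x axis, knockout minus parental, bars of 2 SE) of tested surface antigen genes other than the members (y axis, sorted), coloured by call. SLC44A4 lies far to the left, LYPD3 and the scarce CSPG4 to the right, and 24 genes did not pass the threshold.

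The 8 tumours were last searched for genes that varied like the members within each group. Over 13049 genes whose log2 CPM averaged at least 1, the Pearson correlation of log2 CPM over 8 tumours after subtraction of each group mean was highest with CEACAM5 for IVNS1ABP (0.986), OLMALINC (0.985) and KDM3B (0.983). For CEACAM6 the closest included BPTF (0.983) and SLIT2 (0.982), and for CD44 they were SPIRE1 (0.987), HSPA6 (0.986) and MAML1 (0.984). The closest gene was PLPP5 for CEACAM7 (0.997), CYB5D2 for MSLN (0.989), RPF1 for EPCAM (0.982), PTAFR for CEACAM1 (0.976), DHRS11 for FOLR1 (0.972) and GRAMD1A for L1CAM (0.960). These are the best of many genes over few tumours that share a library each, so they are given as a description. No gene was among the closest 3 for more than 1 member. Between the members themselves, the same correlation ran from -0.84 (CEACAM7 with EPCAM) to 0.89 (CEACAM5 with CD44). It was 0.71 for CEACAM5 with CEACAM6, and these values too are only a description. EPCAM, FOLR1, L1CAM and CEACAM1 were the members with no called neighbour by the edgeR test (8 tested neighbours, adjusted p = 0.265 to 0.959). Each other member had a called neighbour, namely CEACAM5, CEACAM6, CEACAM7, SLC1A2 or MSLNL. RPS19, LINC01480, PDHX and CIAO3, also neighbours of those members, were not called. Of all genes tested 27.0% were called.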

How the data were processed

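RNA was sequenced from 8 H2122 xenograft tumours, 4 parental and 4 SMARCA4 knockout, with 1 deposited file a tumour. The deposited files hold raw counts by gene symbol. The 5 summary lines at the end of each were kept out of every total and test, and 79.1% to 85.2% of the reads listed in a file were assigned to a gene. The submitters' processing notes list TopHat2 2.1.1, HTSeq 0.11.0 and the build hg38. The annotation, strand setting and any separation of mouse from human reads are not given in the sources used here, so mouse reads that resemble human transcripts may be counted. The labels do not say that tumours of a group came from separate cell cultures, so p-values measure the spread between these samples.

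Counts were fitted with edgeR 4.0.16 (R 4.3.3): filterByExpr (minimum count 10, minimum total 15), TMM scaling and the quasi-likelihood F-test, two-sided, group only, with Benjamini-Hochberg adjustment over 16219 genes. The fit was tested on simulated data. CPM uses the TMM-scaled library size. SE is the log2 fold change divided by the square root of F. Single CPM values were compared by exact two-sided permutation (scipy 1.17.1). GENCODE 29 (GRCh38) supplied positions and exon lengths, the latter for 98% of tested genes by symbol, and promoters are from RefSeq (GRCh38.p14), which matched 6 of the 9 members. The pairing of replicate numbers was checked by the correlation of deviations from group means. Alternatives were DESeq2 1.42.0, limma-voom (limma 3.58.1), other scalings and filters, a replicate block, and leaving out each tumour.

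The members and gene lists were chosen with earlier results of these data known. Named beside the members were, per list, up to 3 called genes in each direction with the largest fold change and an average log2 CPM of at least 1, the 3 closest genes by within-group correlation and the nearest tested neighbours. Some genes that this rule selects are not reported here. HAS2, HYAL1, HYAL3, SPP1, MSN, HYAL2, CEMIP2, CLDN7, NFASC, CHL1, NRCAM, MUC1, MUC16, CSPG4 and single cell type markers were named after their values were seen.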

Additional observations from a re-analysis of the deposited data

Results flagged for a closer look

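Single tumours were sought that lay far from the rest of their group. In 20 sets of 4 values (the 9 members and SMARCA4 in each group), 4 extreme values stood apart by Dixon's criterion, which sets the gap to the nearest value against the whole range. Chance gives about 5% of such sets. CEACAM5 was at 740 CPM in parental replicate 2 and at 568 to 592 CPM in the other parental tumours. CEACAM7 was at 1.22 CPM in knockout replicate 2, which is 25 counts, and at 0.373 to 0.419 CPM in the other knockout tumours. L1CAM was at 0.892 CPM in parental replicate 3 against 0.536 to 0.594 CPM in the others, and at 0.933 CPM in knockout replicate 1 against 0.292 to 0.326 CPM. Both of these L1CAM values rest on 20 counts.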

How the results depend on the processing

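The changes of CEACAM5, CEACAM6, CD44 and SMARCA4 kept their direction and their call in all 8 other fits on the 8 tumours and in all 8 fits without 1 tumour. Over both kinds of fit, log2 fold changes ran from 0.85 to 1.03 for CEACAM5, 0.48 to 0.72 for CEACAM6 and 0.57 to 0.73 for CD44. Leaving out 1 tumour gave -2.48 to -1.26 for CEACAM7, with 4 calls lost, -0.29 to -0.19 for EPCAM, with 1 call gained, and 0.25 to 0.70 for MSLN, with 1 call gained; beyond the smaller number of tumours, the cause was not tested. The number of members called was 4 in all other fits on the 8 tumours and 3 to 5 without 1 tumour, and the number of genes called was 3871 to 4996 and 3501 to 4721. L1CAM was not tested when at least 1 CPM was required in 4 tumours. With the replicate block, 3871 genes were called against 4385 without it; the log2 fold change was 0.94 for CEACAM5, 0.60 for CEACAM6, 0.62 for CD44 and -1.76 for CEACAM7 (adjusted p = 0.0294), and no member's call changed. Same-numbered tumours did not deviate together (correlations -0.28 to 0.10 across genes, and 0 of 4 parental tumours matched their own number best), so the numbers were not taken as pairs. The numbers used are the deposited replicate numbers. The title of parental replicate 4 carries a tumour number that differs from its replicate number. Counts of 6 to 20 a tumour for L1CAM and 8 to 100 for CEACAM7 limit what can be seen for these genes.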
